A study of Mus musculus with 6 samples.

Results

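Among 62236 sites of CTBP2 signal in mouse macrophages, 806 sites were nearly unbound under vehicle and gained signal after LPS, which is 1.3% of all sites. CTBP2 was profiled by chromatin immunoprecipitation and sequencing, which counts the DNA fragments that come down with an antibody to the protein. The members were selected on the same signal that is described here, so their vehicle and LPS values are a description and not a test. The rule divided each library by its median over sites and multiplied by 45, which gives the scaled signal used throughout. It then kept sites with all 3 vehicle values under 30, a log2 difference M of 1.5 or more, and the lowest LPS value above the highest vehicle value. M is log2(mean LPS + 1) minus log2(mean vehicle + 1), and the added 1 makes it understate changes at low sites. The last condition removed no site that the first 2 had kept.

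All 6 libraries came from bone marrow-derived macrophages of male wildtype C57BL6/N mice aged 6 to 12 weeks, grown from marrow in medium conditioned by L929 cells. The 3 vehicle libraries came from cells given PBS, and the 3 LPS libraries from cells given 100 ng/ml LPS, a component of the outer membrane of Gram-negative bacteria, for 3 h. The labels number the replicates without saying that they were separate animals or cultures, so a p-value covers only library-to-library spread, part of which may be technical. Input chromatin or a control precipitation was not analysed here, so "nearly unbound" means low beside the other sites and not at background. Chromatin signal does not show which genes the cells express, and the labelled cell type was not checked against expressed markers.

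CTBP2 is a co-repressor: it does not read DNA itself but is brought to chromatin by sequence-specific factors, and it carries histone deacetylases and the demethylase KDM1A with it. LPS is sensed by TLR4, which activates NF-kB, AP-1 and IRF factors and, through type I interferon, the STAT factors. In macrophages these pathways switch on cytokines, chemokines and antimicrobial genes within hours. Co-repressors are known for restraining inflammatory genes in macrophages at rest.

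The promoters of 5 genes are shown first, because at these genes the member site covers the start itself and the sequence next to it can be read. They were picked after motif matches were seen: 4 hold a match to a marked motif, and Camp is an example without a marked match. Of the 15 genes with a promoter start within 1 kb of a member, 7 held a match to at least 1 of the 9 motifs marked and 8 held none. Each runs 5′ to 3′ over the 250 bases before the start, from the RefSeq table on GRCm38.p6. Capitals mark matches, on either strand, to the NF-kB, interferon-response, AP-1, C/EBP, PU.1, CRE, STAT and RUNX letters given after them. The sites themselves were measured on GRCm39 coordinates, and their own sequence was not analysed here.
Lcn2, chr2:32387740-32387989, minus strand: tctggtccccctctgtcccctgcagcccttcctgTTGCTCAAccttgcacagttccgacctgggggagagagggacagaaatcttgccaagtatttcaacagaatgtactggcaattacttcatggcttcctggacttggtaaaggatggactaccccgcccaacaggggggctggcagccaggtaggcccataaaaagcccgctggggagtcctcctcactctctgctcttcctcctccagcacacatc
Serpinb2, chr1:107511173-107511422, plus strand: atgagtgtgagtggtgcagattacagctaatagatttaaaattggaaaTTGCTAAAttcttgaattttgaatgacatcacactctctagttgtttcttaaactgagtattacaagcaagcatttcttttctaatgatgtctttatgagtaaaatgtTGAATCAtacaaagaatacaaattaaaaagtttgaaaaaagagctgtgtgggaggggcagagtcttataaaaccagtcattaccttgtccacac
Cp, chr3:19956999-19957248, plus strand: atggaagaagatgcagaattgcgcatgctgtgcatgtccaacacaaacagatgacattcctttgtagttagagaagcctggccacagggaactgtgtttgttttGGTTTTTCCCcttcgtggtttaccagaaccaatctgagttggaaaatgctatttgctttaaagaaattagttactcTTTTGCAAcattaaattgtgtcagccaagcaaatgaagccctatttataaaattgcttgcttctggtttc
Olr1, chr6:129507166-129507415, minus strand: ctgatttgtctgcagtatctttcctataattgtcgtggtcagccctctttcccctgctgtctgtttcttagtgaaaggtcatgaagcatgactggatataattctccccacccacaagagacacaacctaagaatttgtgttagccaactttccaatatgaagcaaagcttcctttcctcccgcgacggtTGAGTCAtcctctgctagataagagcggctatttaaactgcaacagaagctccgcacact
Camp, chr9:109849457-109849706, minus strand: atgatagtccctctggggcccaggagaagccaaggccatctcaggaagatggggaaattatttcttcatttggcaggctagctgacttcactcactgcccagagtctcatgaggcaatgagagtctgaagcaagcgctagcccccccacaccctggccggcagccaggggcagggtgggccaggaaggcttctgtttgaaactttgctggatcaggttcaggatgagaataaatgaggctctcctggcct

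The Lcn2 promoter held 1 match to the C/EBP letters TTGCNNAA, 216 bases before the start. The Olr1 promoter held 1 match to the AP-1 letters TGANTCA, 60 bases before it. The Serpinb2 promoter held both kinds, and the Cp promoter held a C/EBP match and a match to the NF-kB letters (GGGAA, any 3 bases, CC). The Camp promoter held none. A match is a description of the letters and not a bound site.

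In all, 19 promoters of 15 genes had a start within 1 kb of a member. Only RefSeq promoters with a placed start were counted, here and in all comparison sets, and those on chromosome 18 were left out. The NF-kB letters were in 5 of these 19 (26.3%), against 5.27% of all 20670 promoters of the same length. The AP-1 letters were also in 5 of 19 (26.3%), against 6.2% of all promoters, and the C/EBP letters in 4 of 19 (21.1%), against 9.18%. Among the 203 promoters within 10 kb of a member the same 3 shares were 8.37%, 7.88% and 12.8%. Among the 34 promoters within 1 kb of a gain at a site already bound they were 20.6%, 8.82% and 17.6%, so higher NF-kB and C/EBP shares than over all promoters were also seen there. Several of the 19 belong to the same gene and overlap, so these small counts are given with no test. The median GC content of the 19 was 48.8%, against 56.0% for all promoters, and its part in the motif shares was not tested. The other motifs were searched in the same way on both strands. The stricter NF-kB form (GGGA, any base, TTTCC), which can overlap the first, was in none of the 19 and in 0.382% of all. The interferon-response letters (GAAA, any 2 bases, GAAA) were in 5.26% and 3.0%, the RUNX letters TGTGGTT in 5.26% and 3.82%, and the ZEB E-box CAGGTG in 15.8% and 16.9%. The KLF and SP letters GGGCGG were in 36.8% and 43.4%, the CTCF core (CC, any 3 bases, AGGGGGC) in 10.5% and 1.53%, and the CACCC box (CCAC then ACCC) in 10.5% and 3.37%. None of the 19 held the CRE (TGAC then GTCA), the PU.1 letters (GAGG then AAGT), the STAT letters TTCCNGGAA or the E-box CACGTG, which were in 1.94%, 2.26%, 0.963% and 6.71% of all promoters.

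The members went from the bottom of the range of sites to its upper middle. Their median vehicle mean was 17.4 scaled units, which ranks at the 3.37th percentile over the table. After LPS the median was 64.7, at the 69.8th percentile. Only 57 members (7.07%) passed 111 units, the 90th percentile of all sites in LPS, and 127 stayed under the LPS median of all sites, 44.5. Gains at sites already bound, which met the same M and no-overlap conditions but had at least 1 vehicle value of 30 or more, numbered 359. They had the same median M of 1.76 but a median LPS mean of 128, and 65.5% of them passed the 90th percentile. Another 7676 sites were under the same vehicle ceiling and were not gained by the rule. Their median vehicle mean was 20.9, somewhat above that of the members. They are named low sites not gained below, but many rose by less than the rule asked. Their median M was 0.616, against -0.0192 for all sites. The limma fit described below called 3329 of these 7676 sites higher, and 10039 of all 62236.

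**Figure D1:**
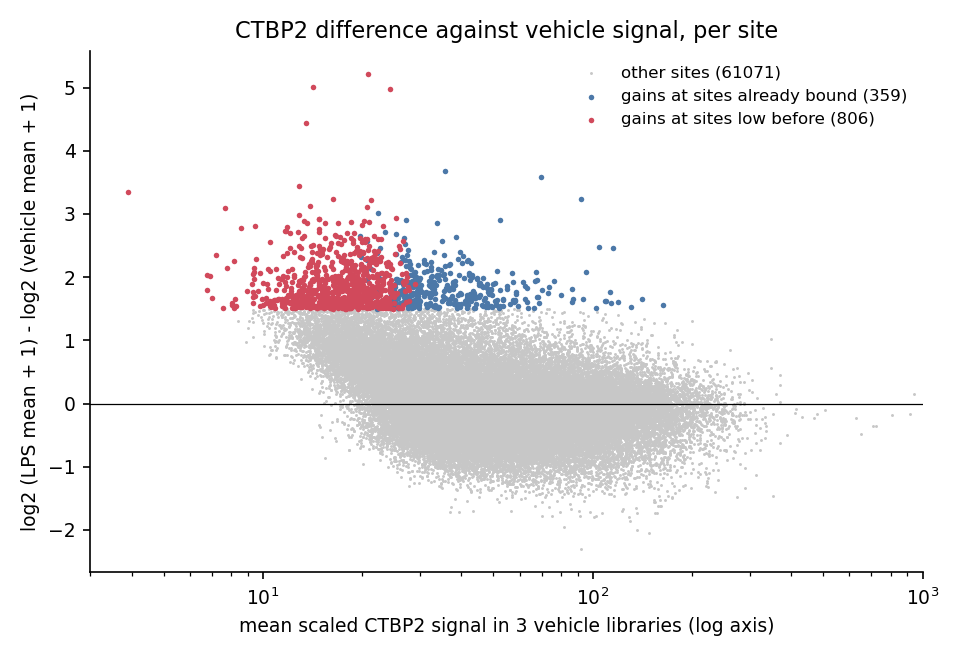
Each point is a site, with its mean scaled vehicle signal on a log axis (x) and its log2 difference between LPS and vehicle (y). The 806 members lie at the upper left with vehicle means of 3.91 to 28.9, the 359 gains at sites already bound lie to their right, and 4 members stand above an M of 4.

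Most gains were modest. M ranged from 1.5 to 5.21 with a median of 1.76, and 220 members reached 2, 11 reached 3 and 4 reached 4. If the smallest step of each deposited column is 1 read, members held a median of 16, 22 and 13 reads in vehicle libraries 1 to 3 and 60, 78 and 74 in LPS libraries 1 to 3. Reads over all sites ranged from 3243258 to 4553179 per library. Members took 0.336 to 0.406% of those reads in the vehicle libraries and 1.45 to 1.6% in the LPS libraries. Vehicle library 3 was the lowest vehicle library at 427 of the 806 members, with a median of 15.0 scaled units there against 17.6 and 18.0 in the other vehicle libraries. The LPS libraries were closer to each other, with medians of 62.8, 63.8 and 64.0. The median coefficient of variation between libraries of a group was 20.8% for vehicle and 12.1% for LPS at the members.

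A limma fit on log2(scaled value + 1) over all sites, adjusted by Benjamini-Hochberg at 0.05, called 805 members higher and none lower. Over all sites it called 16.1% higher and 13.5% lower, and since the rule used this contrast nothing is read from the members' count. On the deposited values without rescaling, the same fit called 700 members higher, against 1.89% of all sites. Of all called sites, 54.4% were higher on the scaled values and 97.5% on the deposited values. The authors' deposited table gave 799 members as higher with an FDR under 0.05, against 4.01% of all sites, and their median log2 fold was 1.49. No overlap between the groups, which every member shows by rule, was found at 21.6% of all sites.

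Near the thresholds members and excluded sites were alike. A site 76.6 kb from the start of Herc1 entered with an M of 1.501, and 1 near Dock10 stayed out with 1.498. The site near Ube2e3 entered with a highest vehicle value of 29.64 and an M of 2.45. The site near Gramd1b, with an M of 1.757, stayed out because vehicle library 3 read 30.0.

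The same rule was then applied to 2 replicate numbers at a time, and the difference was read in the vehicle and LPS library of the number left out. Without replicate 1, 1059 sites were chosen, and their median log2 difference in the libraries left out was 1.50. Without replicate 2 it was 1.52 over 1056 sites, and without replicate 3 it was 1.9 over 711 sites. The difference was above 0 at 99.7%, 99.9% and 100% of the chosen sites. It reached 1.5 at 50.4%, 51.1% and 75.4% of them. Sites under the same ceiling that were not chosen had medians of 0.421, 0.454 and 0.52, and all sites had 0.0185, 0.0111 and -0.0683. The difference was above 0 at 76.2%, 79.7% and 71.0% of those low sites, and at 51.4%, 51.7% and 45.5% of all sites. The list of sites was not redrawn without the libraries left out. A site low in vehicle may be listed only for its LPS signal, so a positive difference at low sites was partly favoured in advance. The choosing libraries gave medians of 1.77, 1.77 and 1.8, so the gain read in the libraries left out was smaller for replicates 1 and 2 and larger for replicate 3. Replicate 3 includes the vehicle library that was lowest at most members, and its part in the larger value was not tested.

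**Figure D2:**
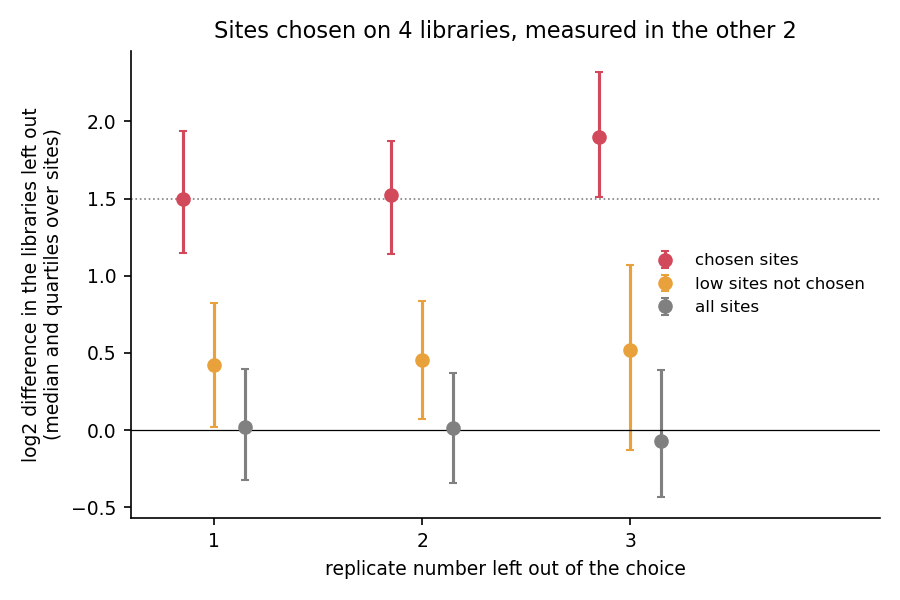
Points are medians and bars are quartiles over sites of the log2 difference (y) in the vehicle and LPS library of the replicate number left out of the choice (x). The chosen sites lie at 1.50, 1.52 and 1.9, above low sites not chosen and all sites.

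Genes were assigned to sites by the nearest gene start, placed at an offset measured within the table because the gene annotation is on GRCm38. All distances below rest on that placement. The 4 members with an M over 4 lay at chemokine genes and at Acod1, and all 4 were near the end of the gene rather than its start.

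The member with the largest gain, chr11:83417329-83418329, lay inside Ccl5, a chemokine that draws T cells and monocytes. It read 20.9, 22.1 and 19.6 scaled units in vehicle libraries 1 to 3 and 475.2, 721.7 and 1221.0 in LPS libraries 1 to 3. Its lowest LPS value was thus far above its highest vehicle value, with an M of 5.21, and its centre lay 3.52 kb after the start and 1.22 kb before the gene's end. The member at Acod1, which makes the antimicrobial metabolite itaconate, was chr14:103291074-103292074. It read 14.3, 12.3 and 16.2 under vehicle and 319.2, 418.1 and 723.4 after LPS. It lay 2.46 kb before the end of Acod1.

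The member at Cxcl2, a neutrophil chemokine, was chr5:91053474-91054474, 0.145 kb past the end of the gene. It read 21.9, 22.1 and 28.8 under vehicle and 618.5, 711.0 and 1050 after LPS. The member at Cxcl10, an interferon-induced chemokine for T cells, was chr5:92493856-92494856, 0.173 kb past the gene's end and inside the overlapping gene Art3. It read 12.1, 14.7 and 13.8 under vehicle and 182.1, 383.7 and 374.7 after LPS. LPS library 1 was the lowest LPS library at all 4 sites, while the groups stayed far apart. No site of the table lay at the placed start of any of these 4 genes, so a gain at the start itself was not measured for them. Over all members, 6.45% had a gene end within 2.5 kb, against 7.09% of all sites, so no excess was seen within that distance. Genes were also cut into 5 equal parts along their length. Of members inside a gene, 19.7% lay in the last part, against 13.9% for all sites. The share was 18.1% for low sites not gained and 15.7% for gains at sites already bound. In the first part it was 18.3% for members, 21.6% for low sites not gained and 35.8% for all sites. The lean toward the gene end was thus shared with other low sites.

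**Figure D3:**
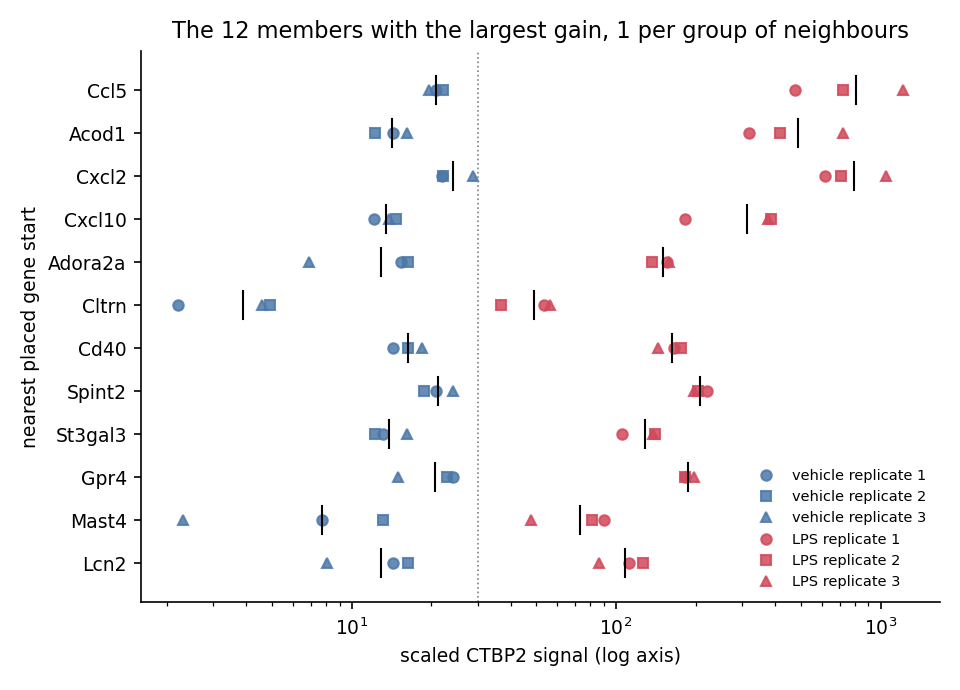
Each row is the member of largest gain in 1 group of neighbouring members, named by the nearest placed start, with its scaled signal (log axis) in the 3 vehicle and 3 LPS libraries and black bars at the group means. The dotted line is the vehicle ceiling of 30, and LPS values at Ccl5 spread from 475.2 to 1221.0.

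The other members with an M of 3 or more gained less. A member inside Adora2a, an adenosine receptor that dampens inflammatory signalling, read 15.4, 16.4 and 6.9 under vehicle and 155.9, 136.6 and 158.4 after LPS, with an M of 3.45. Another Adora2a member, 0.989 kb after a start of the gene, had an M of 2.65. The member 5.9 kb before the start of Cd40, a co-stimulatory receptor of the TNF receptor family, read 14.3, 16.4 and 18.5 under vehicle and 165.4, 176.7 and 144.5 after LPS. At the Cd40 start itself the signal was already there before LPS, at 96.6, 111.3 and 120.0, and it stood at 332.8, 321.6 and 357.4 after LPS. The member inside Spint2, a serine protease inhibitor, had an M of 3.22, and its LPS values of 219.8, 204.6 and 196.4 lay close together. Members near Gpr4, a proton-sensing receptor, and St3gal3, a sialyltransferase, each had an M of 3.12.

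The lowest vehicle values of the leading members were at a site on the X chromosome 1.03 kb before the start of Cltrn, which encodes the amino acid transport protein collectrin. It read 2.2, 4.9 and 4.6 under vehicle, which is 2, 6 and 4 reads, and 53.4, 36.8 and 56.2 after LPS. Its fold therefore rests on very few vehicle reads. The member inside Mast4, a kinase gene, was also low, at 7.7, 13.1 and 2.3 under vehicle and 90.0, 81.0 and 47.6 after LPS. Of the sites on the X chromosome, 31 of 977 (3.17%) were members, against 1.27% on chromosomes 1 to 19. The X also carried lower signal in general, with a median vehicle mean of 38.4 against 44.7, and 16.2% of its sites were low in vehicle against 13.6%. Among the sites low in vehicle, 19.6% on the X were members, against 9.31% on chromosomes 1 to 19, so the share was also higher among low sites alone.

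Few members lay at gene starts. Only 17 of 806 (2.11%, exact 95% binomial interval 1.23 to 3.36%) were within 1 kb of a placed start, against 15.6% of all sites and 10.3% of gains at sites already bound. Among sites under the vehicle ceiling that the rule did not take the share was 2.21%, so scarcity at starts was shared with other low sites. The interval counts sites, which are not fully independent. The median distance to a start was 30.8 kb for members, 22.2 kb for gains at sites already bound, 25.5 kb for low sites not gained and 18.3 kb for all sites. Members lay inside a gene in 42.8% of cases, against 55.1% of all sites and 54.6% of low sites not gained. For gains at sites already bound it was 46.2%, so a share below that of all sites was seen there too.

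No gene of the inflammatory mediator list was among those with a member within 1 kb of its start. The member 0.242 kb before the start of Lcn2, which binds bacterial siderophores, read 14.3, 16.4 and 8.1 under vehicle and 112.0, 126.8 and 86.5 after LPS. This is the start whose sequence is printed first above. The member 0.305 kb before the start of Camp, the cathelicidin gene, read 15.4, 20.5 and 24.2 under vehicle and 138.2, 124.4 and 104.7 after LPS. Lcn2 and Camp were the 2 genes of 15 on a list of neutrophil markers that had a member, and macrophages can also express Lcn2. The member at Cfb, complement factor B, read 20.9, 20.5 and 15.0 under vehicle and 118.3, 122.7 and 112.5 after LPS.

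At Cybb, the catalytic subunit of the phagocyte NADPH oxidase, a member 0.895 kb before a start read 13.2, 15.5 and 12.7 under vehicle and 48.1, 58.1 and 96.9 after LPS, so LPS library 3 stood above the others. Smaller gains were seen at Serpinb2, a protease inhibitor of activated macrophages, at Cp, the copper ferroxidase ceruloplasmin, and at Olr1, a scavenger receptor for oxidised LDL. The Serpinb2 site read 16.5, 21.3 and 6.9 under vehicle and 49.2, 54.8 and 62.3 after LPS. The Cp site read 15.4, 20.5 and 15.0 and then 46.1, 53.2 and 59.7, and the Olr1 site 28.5, 21.3 and 27.7 and then 69.1, 76.9 and 80.5. In all 3 the groups were apart but the LPS level stayed near or moderately above the median of all sites. The other members at starts were at the other Adora2a site just named, Col27a1, Heg1, Efna2, Fpr1, Slc7a7, Etnk2, Nhsl1, 4930512M02Rik and H2-M2, with an M of 1.52 to 2.65.

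**Figure D4:**
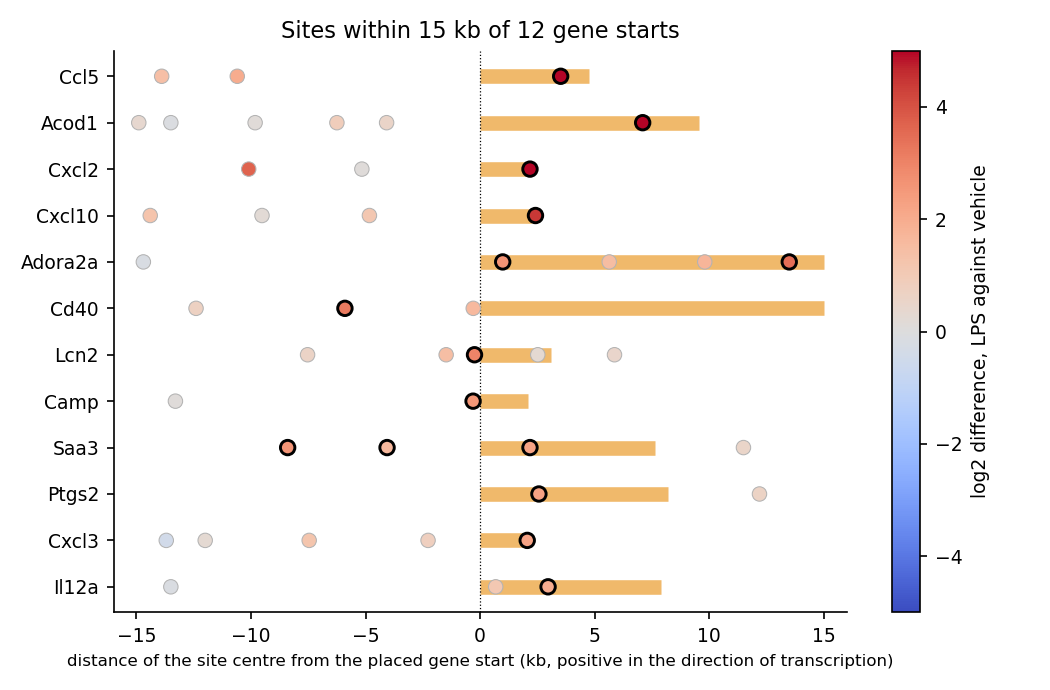
Each row shows the sites of the table within 15 kb of a placed gene start (x, kb in the direction of transcription), coloured by their log2 difference, with members outlined in black and the gene body as a bar. Ccl5, Acod1, Cxcl2 and Cxcl10 have their member toward the gene end and no site at the start, while Lcn2 and Camp have it at the start.

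Gene lists were read by how many of their placed genes had a member as the nearest start. Over all 18690 placed genes 642 (3.43%) had 1 or more members nearest to them, and 200 (1.07%) had a member within 10 kb. The lists were chosen with earlier results of these data known, so the counts describe and carry no test. A gene with more sites nearest to it has more ways to have a member among them. That number differed between genes, such as 2 for Cxcl2 and 30 for Inhba. The counts were not adjusted for it, and its part in the shares was not tested. Of the inflammatory mediators, 19 of 36 (52.8%) had a member nearest to them and 11 (30.6%) had a member within 10 kb.

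Besides the 4 leading genes the inflammatory list held Ptgs2, which encodes cyclooxygenase 2. Its member, 2.57 kb after the start, read 19.8, 19.6 and 21.9 under vehicle and 85.8, 79.4 and 145.4 after LPS. Ptges, which makes prostaglandin E2 from the product of cyclooxygenase 2, had a member 1.37 kb after its start with an M of 1.89. A second Ptges member, 10.1 kb before the start, was the larger and read 21.9, 18.8 and 28.8 and then 162.2, 175.1 and 170.5. The member at Cxcl3, a neutrophil chemokine, had an M of 2.23, that at Ccl8, a monocyte chemokine, 1.91, and that at Il12a, a subunit of interleukin 12, 2.03. Saa3, an acute-phase protein made by macrophages, had 3 members within 10.6 kb, with an M of 1.61 to 2.6. Il1b, Nos2, Csf1, Il12b and Csf2 had members 14.5 to 63.8 kb from their starts.

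Some inflammatory genes had several members far from the start. Inhba, the activin A subunit, had 8 members among its 30 nearest sites, at 24.2 to 486 kb and with an M of 1.54 to 2.26. Inhba was placed only after the least number of hits was lowered from 10 to 5, and with 10 the inflammatory list had 18 of 35 genes nearest to a member. Il6 had 5 among 14 sites, at 42.7 to 133 kb, with LPS means of 39.7 to 87.1. Slco3a1, an organic anion transporter on no list, had 7 among 32 sites, and its strongest read 24.1, 19.6 and 18.5 under vehicle and 124.5, 135.8 and 131.5 after LPS. Of the 642 genes, 531 had a single member and 12 had 4 or more. A nearest start says nothing of which gene a distant site acts on.

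The NF-kB pathway list had members nearest to 9 of 30 genes (30.0%) and within 10 kb of 5 (16.7%). The member at Ikbkb, the kinase that releases NF-kB, lay 1.65 kb after the start and read 9.9, 17.2 and 17.3 under vehicle and 85.8, 89.2 and 87.4 after LPS. Tnfaip3, which encodes the NF-kB inhibitor A20, had 5 members, the strongest with an M of 2.41. Birc3 and Birc2, ubiquitin ligases of the TNF receptor pathway, had members with an M of 1.88 and 1.62. Traf1, an adaptor of that pathway, had 1 with 2.26 and Nfkbiz, a nuclear co-factor of NF-kB, 2 with 1.57 and 1.7.

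Of the interferon response list 11 of 40 genes (27.5%) had a member nearest, but only 3 (7.5%) had a member within 10 kb. The member 6.62 kb after the start of Rsad2, which encodes the antiviral enzyme viperin, read 26.3, 18.0 and 16.2 under vehicle and 65.9, 102.3 and 163.5 after LPS. The LPS libraries at Rsad2 were spread widely, and all were above the vehicle libraries. Its neighbour Cmpk2 had a member with an M of 1.57, and Gbp7, a guanylate-binding protein of cell-autonomous defence, had 2 with an M of 2.26 and 2.32. Mx2, an antiviral GTPase, had 1 with 2.47.

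Among genes that restrain the response, 7 of 19 (36.8%) had a member nearest and 2 (10.5%) had a member within 10 kb. The member at Il1rn, the interleukin 1 receptor antagonist, lay 3.63 kb before the start and read 18.7, 16.4 and 18.5 under vehicle and 68.0, 68.7 and 61.4 after LPS. Cish, a suppressor of cytokine signalling, had 2 members with an M of 1.63 and 2.02, and Sod2, the mitochondrial superoxide dismutase, 2 with 1.63 and 2.17. Il10, an anti-inflammatory cytokine, had 2 members 16.9 and 30.2 kb from its start, with an M of 1.53 and 1.69.

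Immediate early and AP-1 genes had members nearest to 5 of 23 (21.7%) and within 10 kb of 1 (4.35%). The member 20.1 kb before the start of Batf, an AP-1 family factor, read 12.1, 16.4 and 11.5 under vehicle and 110.9, 107.2 and 98.7 after LPS. The member 4.45 kb before Jund, a subunit of AP-1, had an M of 2.05. Genes for CTBP2 partners had members nearest to 6 of 25 (24.0%), none within 10 kb. These were Kdm1a, Nrip1, Prdm1, Bcl11a, Zeb1 and Zeb2, at 56.5 to 464 kb. Lipid genes had 4 of 23 (17.4%), with 1 (4.35%) within 10 kb, and macrophage identity genes 3 of 24 (12.5%), the latter all over 25 kb away. Glycolysis genes had 1 of 17, and none of 12 lymphocyte and none of 13 housekeeping genes had a member nearest. Since a far start can still be the nearest, the counts within 10 kb are the stricter reading.

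Members were mostly single. Of 806, 113 (14.0%, exact interval 11.7 to 16.6%) lay within 10 kb of another member, and the members formed 748 groups, of which 693 held 1 site. The share was 2.79% among the 359 gains at sites already bound and 28.6% among the 7676 low sites not gained, and such shares rise with the number of sites in the set. The 3 groups of 3 members were near Saa3, Gm2396 and Stk31. At Gm2396 the 3 sites spanned 6.66 kb with an M of 1.58 to 2.64.

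Sites that were not members were higher after LPS the closer they lay to a member. Their median M was 0.65 at 1 to 5 kb (511 sites), 0.472 at 5 to 10 kb, 0.334 at 10 to 25 kb and 0.222 at 25 to 50 kb. It fell to 0.0147 at 100 to 250 kb and -0.0855 beyond 1000 kb. Among neighbours with every vehicle value of 30 or more the medians were 0.337 at 1 to 5 kb and -0.163 beyond 1000 kb, so the gradient was also present at sites that were already bound. In the replicates taken singly the 1 to 5 kb bin of all non-members gave 0.486, 0.563 and 0.811, and the bin beyond 1000 kb gave -0.0342, -0.0492 and -0.148. Such a pattern was not particular to the members. With all members, gains at sites already bound and low sites left out, the remaining sites within 10 kb had a median M of 0.32 around members (721 sites), 0.34 around gains at sites already bound, 0.0488 around low sites not gained and -0.0922 anywhere. The first bin starts just over 1 kb, where adjacent sites can share DNA fragments.

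**Figure D5:**
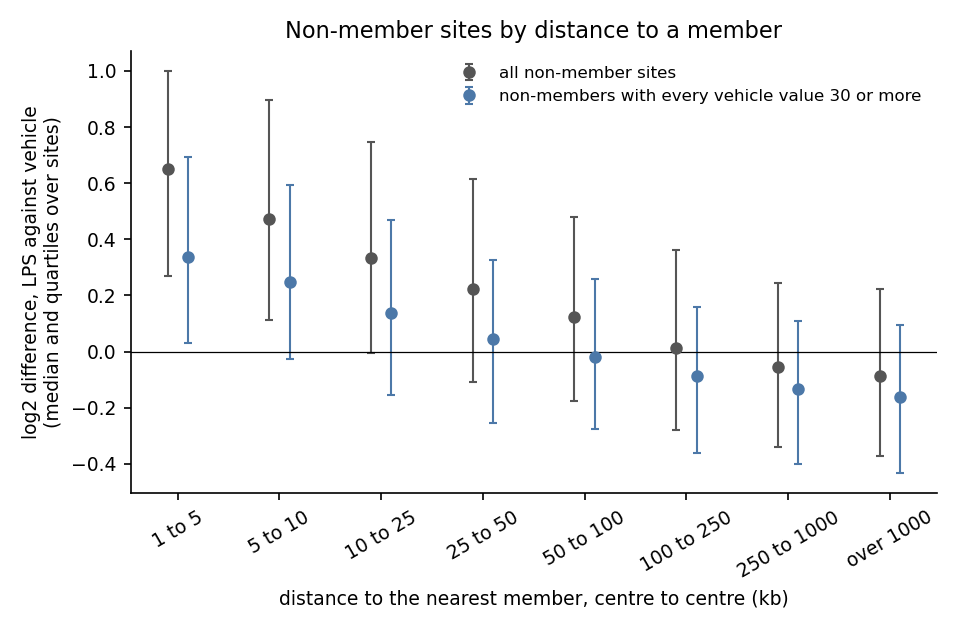
Points are medians and bars are quartiles over non-member sites of the log2 difference between LPS and vehicle (y), by the distance to the nearest member in kb (x). Medians fall from 0.65 to -0.0855 over all non-members and from 0.337 to -0.163 over those with every vehicle value of 30 or more.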

How the data were processed

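CTBP2 signal was read from 1 deposited table of 62236 sites. The submitters' processing notes name MACS3 3.0.0a5, DiffBind 3.16 and BWA 0.7.17 among their tools, and mm39, GRCm39 and mm10 as builds, without roles. Whether peaks came from single libraries or pooled reads was not given in the sources used here. As deposited by the authors, the table holds a normalised signal per site and library, which came out as whole multiples of 1 step per library within 0.00742 of a step. The origin of the step was unknown, so no count model was fitted. The authors also deposited a log2 fold and p-values with FDR for each site, per the file headers. Medians as deposited were 35.5, 37.3 and 73.0 in vehicle libraries 1 to 3 and 37.1, 48.8 and 61.0 in LPS libraries 1 to 3. Each library was therefore brought to a median of 45.

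Sites were tested with limma (version 3.58.1, R 4.3.3, options trend and robust) on log2(value + 1), with 6 libraries and no covariates. P-values were adjusted by Benjamini-Hochberg over all sites. The fit was also run on simulated data with the same spread at all sites, which checks the code and not the error rate here. No filter on low values was used. Site positions are as deposited and were taken as GRCm39. Starts of 18690 gene symbols (GRCm38) were placed by an offset found along each chromosome (shifts up to 2000 kb, steps of 250 bp, switch penalty 20, assumed share 0.5, at least 5 hits in a stretch). When alternate genes were left out of the path, 70.1% of their starts had a site within 500 bp, against 9.22% with no offset. The placement settings were chosen after the data were seen, among 16 combinations of penalty, assumed share and gene set, on the held-out share and on where Tnf fell. The search range was widened as well, and the least number of hits was lowered from 10 so that Inhba could be placed. Symbols missing from that set could not be assigned a site.

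Named sites were, by rule, the member of largest M in each of the 20 groups with the largest M (members within 10 kb of each other form a group), the 5 largest groups, up to 3 genes per list nearest to a member, the 5 with the lowest vehicle values among those with an M of 3 or more, and the sites next to each threshold. Members at gene starts, further members of a gene, genes with many members and list genes beyond the nearest 3 were named after their values were seen. The members and the 12 gene lists were chosen with earlier results of these data known. The motifs were searched in promoters, a choice made after the files were seen.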

Additional observations from a re-analysis of the deposited data

How the results depend on the processing

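The number of members was 341 with a vehicle ceiling of 20, 2368 with an M of 1 or more, 220 with an M of 2 or more and 473 with a pseudocount of 5. On the deposited values without rescaling it was 757, of which 569 were among the 806, and with quantile normalization it was 607, all among the 806. It ranged from 738 to 1022 when 1 library was left out. Sites called higher and lower by limma numbered 10039 and 8411, against 1178 and 30 on the deposited values without rescaling. At a threshold of 0.01, 4703 were lower. Leaving out 1 library gave 7691 to 10083 higher, 6030 to 7914 lower and 801 to 805 members called higher. On the deposited values the median log2 difference in the libraries left out was 1.44, 1.85 and 1.48 for replicates 1 to 3. The baselines shifted as well: all sites had medians of 0.0798, 0.396 and -0.325, and low sites not chosen 0.6, 0.995 and 0.0192. The share of members near another member was 7.2% at 5 kb and 23.8% at 25 kb, and 22.5% lay within 10 kb of a start. With the replicate block, 11692 sites were higher and 10400 lower, with 806 members higher. Deviations of same-numbered libraries from their group means had r of 0.111, 0.0385 and 0.214. Libraries of different numbers gave r from -0.205 to 0.148. The same-numbered values were thus above 0 but small, and the numbers were not shown to pair the libraries. A shared effect of replicate 3, which had the largest r, was not tested. The block changed the call of none of the 55 named sites. Of those 55, the sites at Maf (adjusted p = 0.0566) and Gm2396 (adjusted p = 0.0913) lost their limma call on the deposited values, and none reversed under any setting run. The causes of these changes were not tested. Other placement settings, added after seeing the data, put 1.99 to 2.11% of members within 1 kb of a start. The planned edgeR and DESeq2 fits were not run because the columns are normalised signal, and motifs within the sites were not analysed here. With a median of 13 to 22 vehicle reads per member, the vehicle level of a single site is known only roughly.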
